A study of Mus musculus with 9 samples.

Results

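The 33 genes described here encode a selection of the acute phase proteins that mouse liver makes. They also encode some receptors and signalling proteins of the IL6 and IL1 pathways that act on those proteins. They were taken by symbol, with no threshold on their values, from the 54393 genes of the deposited count table, and all 33 were among the 14873 genes that passed the filter on low counts. They fall into 12 groups by role, from the serum amyloid A proteins and lipocalin 2 to the carrier proteins albumin and transthyretin. Gene expression was measured by RNA sequencing in 4 libraries from livers of mice whose gut bacteria had been depleted with non-absorbable antibiotics and in 5 libraries from livers of conventional control mice. All mice were fed the purified diet AIN-76a, and the labels write the strain as C56Bl/6j. Which antibiotics were given, at what dose and for how long, and the age and sex of the mice are not stated in the labels. The antibiotics libraries carry the numbers 1, 2, 3 and 5 and the control libraries the numbers 1 to 5. The labels say neither what a number stands for nor whether the libraries are from separate mice, so the p-values rest on the variation among libraries, which may be technical.

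The acute phase response is the liver's reply to infection or tissue injury. IL6 binds its receptor Il6ra together with the shared signalling subunit Il6st (gp130), kinases of the JAK family then activate the transcription factor Stat3, and Stat3 raises the secreted plasma proteins and also its own inhibitor Socs3. IL1 and TNF act through NF-kB and, with C/EBP factors, add to the induction of the serum amyloid A genes. Proteins that rise in plasma are called positive acute phase proteins, and albumin, transthyretin and fetuin-A, which fall, are called negative.

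Depletion of the gut bacteria went with a higher level of Serpina3m, a protease inhibitor of the antichymotrypsin family, and with no other called difference among the 33 genes. Several inducible acute phase transcripts, Saa1, Saa2 and Lcn2 most of all, instead varied widely between libraries of the same group. For these transcripts libraries 3 and 5 of each group were high. Antibiotics libraries 1 and 2 and control libraries 1 and 4 were low, while control library 2 mostly lay between them. Levels are given as normalised read counts (CPM, read counts scaled to a common library size with TMM factors), in the order of the library numbers. A gene was called at an adjusted p under 0.05 in edgeR's quasi-likelihood F test, with Benjamini-Hochberg adjustment over all 14873 tested genes, and log2 fold changes are antibiotics over control with their SE. Among all tested genes 2.68% were called, 1.63% higher and 1.05% lower in antibiotics livers. Of the 33 genes 1 was called higher and 0 lower, and 4 had an unadjusted p under 0.05, as did 18.5% of all tested genes. A share of 1 in 33 is near that background, so the count says nothing particular about these genes. Their median log2 fold change was -0.09, against -0.01 over all tested genes. Of the 33 log2 fold changes 23 were below 0, as were 51.4% of those of all tested genes. The median of the 33 was 0.03 without antibiotics library 2 and 0.02 without control library 3 or without control library 5. With any other library left out it stayed below 0.

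**Figure D1:**
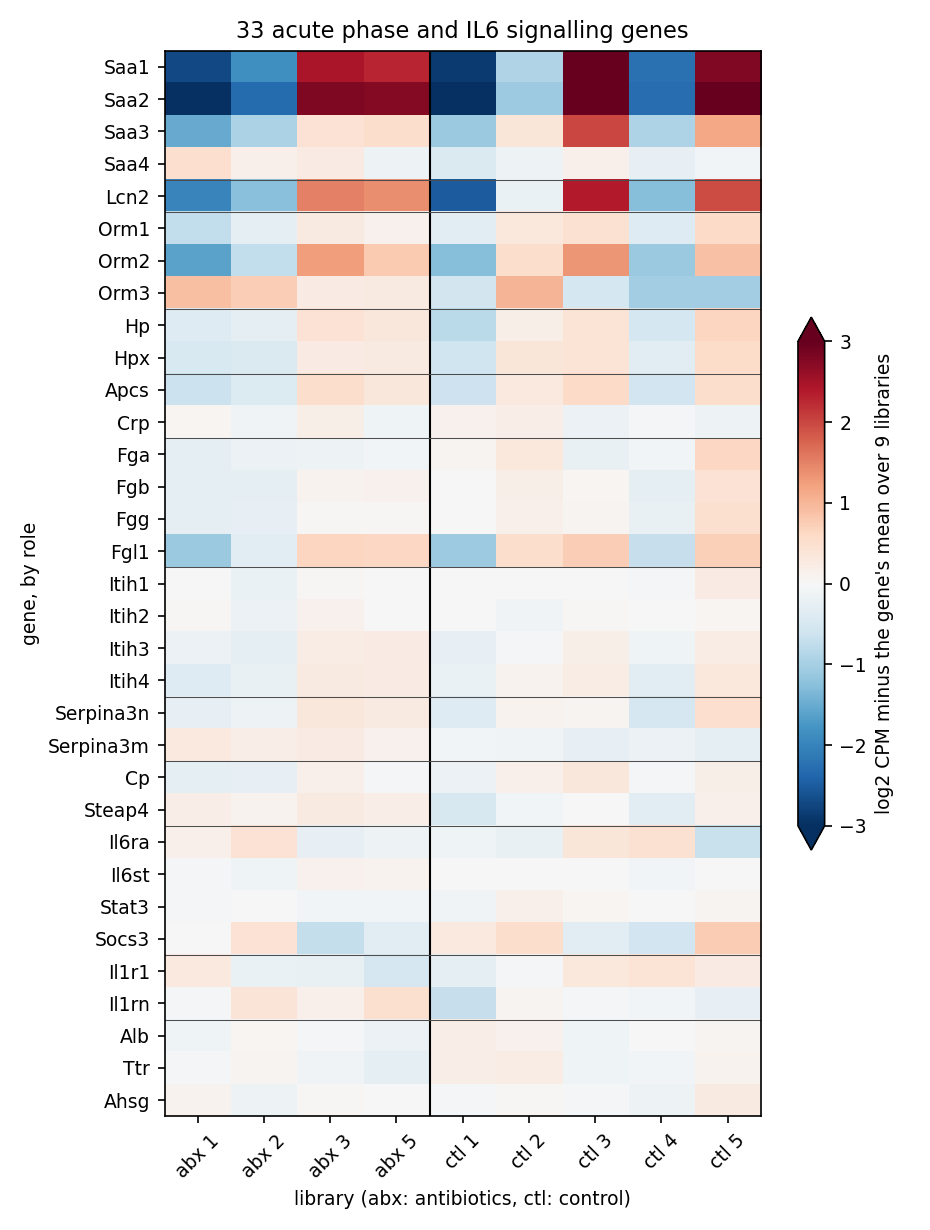
Each row is a gene and each column a library, antibiotics (abx) left of control (ctl), and the colour gives log2 CPM minus the mean of that gene over the 9 libraries, with the scale ending at 3 in either direction. The serum amyloid A genes Saa1 and Saa2 and Lcn2 are red in libraries 3 and 5 of each group and blue in antibiotics 1 and 2 and control 1 and 4, while Il6st, Stat3 and the negative acute phase genes are pale throughout.

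The serum amyloid A genes lie together on chromosome 7 of GRCm38. Saa1 spans 46740497 to 46742980 on the minus strand, Saa2 spans 46751790 to 46754313 on the plus strand, Saa3 spans 46711998 to 46715700 and Saa4 spans 46727998 to 46732603, the last pair on the minus strand. Saa1 and Saa2 encode the inducible forms that travel on high-density lipoprotein, Saa3 is an inducible form known in the mouse mostly from macrophages and fat, and Saa4 is the constitutive form. The 250 bases before the RefSeq start of these genes are shown with those of Lcn2 and Orm2, because Saa1, Saa2, Saa3, Lcn2 and Orm2 shared their highest libraries and Saa4 did not. They come from RefSeq on GRCm38.p6, 5′ to 3′ on the strand of the gene, and a RefSeq start need not equal the gene bound given above. Capitals mark letters that match TTGCNNAA, a C/EBP-like motif, or GGNNTTTCC, an NF-kB-like motif, on either strand.
Saa1, chr7:46742981-46743230, minus strand: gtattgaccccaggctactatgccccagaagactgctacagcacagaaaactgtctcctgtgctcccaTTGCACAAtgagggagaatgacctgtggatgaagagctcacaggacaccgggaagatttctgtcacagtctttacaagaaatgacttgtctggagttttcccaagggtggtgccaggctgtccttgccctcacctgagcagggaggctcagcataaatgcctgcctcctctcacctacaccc
Saa2, chr7:46751583-46751832, plus strand: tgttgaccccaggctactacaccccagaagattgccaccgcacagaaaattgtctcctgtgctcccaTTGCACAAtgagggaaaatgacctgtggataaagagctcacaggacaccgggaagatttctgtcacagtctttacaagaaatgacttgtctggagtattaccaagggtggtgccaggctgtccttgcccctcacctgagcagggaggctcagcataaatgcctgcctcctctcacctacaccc
Saa3, chr7:46715677-46715926, minus strand: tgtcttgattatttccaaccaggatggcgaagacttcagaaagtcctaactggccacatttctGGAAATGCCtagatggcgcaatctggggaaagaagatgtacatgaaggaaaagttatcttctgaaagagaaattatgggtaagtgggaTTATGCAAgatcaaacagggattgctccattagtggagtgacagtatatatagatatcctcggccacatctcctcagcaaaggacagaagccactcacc
Saa4, chr7:46732604-46732853, minus strand: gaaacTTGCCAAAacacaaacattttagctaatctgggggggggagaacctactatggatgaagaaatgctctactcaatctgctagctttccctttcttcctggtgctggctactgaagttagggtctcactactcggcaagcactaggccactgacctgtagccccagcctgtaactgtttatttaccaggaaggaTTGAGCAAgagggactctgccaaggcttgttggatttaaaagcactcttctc
Lcn2, chr2:32387740-32387989, minus strand: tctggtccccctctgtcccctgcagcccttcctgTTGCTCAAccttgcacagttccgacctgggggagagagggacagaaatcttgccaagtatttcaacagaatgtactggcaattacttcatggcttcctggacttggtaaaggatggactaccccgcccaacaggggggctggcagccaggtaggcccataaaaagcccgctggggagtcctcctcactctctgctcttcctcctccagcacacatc
Orm2, chr4:63362199-63362448, plus strand: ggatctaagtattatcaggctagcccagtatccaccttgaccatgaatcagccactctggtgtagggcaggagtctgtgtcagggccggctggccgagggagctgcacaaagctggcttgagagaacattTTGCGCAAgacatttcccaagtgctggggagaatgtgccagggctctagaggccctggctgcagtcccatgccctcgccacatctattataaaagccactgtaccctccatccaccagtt
The Saa1 and Saa2 windows were 94.8% identical over an alignment of 251 columns, and the other pairs of Saa windows were 46.8% to 52.4% identical. All 6 windows held at least 1 C/EBP-like match, at -182 to -175 from the start in Saa1 and at -183 to -176 in Saa2. Saa4 held 2 such matches. Whether these letters bear on the library pattern was not tested. Of the 6, the window of Saa3 alone held an NF-kB-like match, at -187 to -179. A STAT-like motif, TTCNNNGAA, had no match in these 6 windows. Apcs, Itih3 and Itih4 also shared the highest libraries of Saa1, but their windows are not shown. Those windows held no C/EBP-like match, and the windows of Apcs and Itih4 held a STAT-like match. RefSeq windows were matched for 28 of the 33 genes, and Orm1, Hp, Fgl1, Serpina3m and Ttr were the other 5. Of the 28, 15 (53.6%) held the C/EBP-like motif, against 9.56% of 32851 RefSeq promoter windows of the same length. The STAT-like motif was in 6 of the 28 (21.4%), among them Socs3, Fga, Fgb, Apcs and Itih4, against 7.02% of all windows. Matches to the NF-kB-like motif were in 3 (10.7%), in Saa3, Serpina3n and Steap4, against 4.93% of all windows. No match of one motif overlapped a match of another. A match describes letters only and is no evidence of binding.

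Saa1 had 28.3, 51.5, 998 and 899 CPM in antibiotics livers, against 25.2, 98.8, 1528, 38.96 and 1261 CPM in control livers. Its 4 highest libraries were numbers 3 and 5 of each group, and the groups overlapped. The log2 fold change was -0.25 ± 1.27 (SE), with an adjusted p of 0.941. Between the highest and the lowest library the level differed 35.3-fold within the antibiotics group and 60.7-fold within the control group. Saa2 had the same 4 highest libraries, with 11.1, 24.1, 834 and 800.4 CPM in antibiotics livers, against 12.7, 56.3, 1273, 24.4 and 1254 CPM in control livers. Its range was the widest of the 33 genes, 75.1-fold within the antibiotics group and 100.3-fold within the control group, and its log2 fold change of -0.33 ± 1.42 (SE) was not called (adjusted p = 0.932). The principal coding transcripts of Saa1 and Saa2 are 93.5% identical over 612 nt, so the split of reads between them is uncertain. Their summed level, which does not depend on that split, was 39.4, 75.5, 1832 and 1699 CPM in antibiotics livers, against 37.8, 155, 2802, 63.3 and 2514 CPM in control livers, with libraries 3 and 5 of each group again far above the rest. In bulk tissue a change in the number of cells that express a gene and a change in RNA per cell cannot be told apart.

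Saa3 was lower in abundance, with 2.42, 3.57, 9.23 and 9.82 CPM in antibiotics livers, against 3.18, 8.77, 27.3, 3.58 and 15.4 CPM in control livers. Control library 3 was the highest and the groups overlapped. The log2 fold change of -0.83 ± 0.62 (SE) was not called (adjusted p = 0.515), and without control library 3 it was -0.24. Saa4 had 355, 275, 297 and 225 CPM in antibiotics livers, against 184, 225, 274, 210.1 and 233 CPM in control livers. For Saa4 libraries 3 and 5 were above the others in control livers, as for Saa1, but not in antibiotics livers. The highest library for Saa4 was antibiotics 1, one of the lowest for Saa1. Its log2 fold change of 0.35 ± 0.14 (SE) had an unadjusted p of 0.0259 and an adjusted p of 0.201. Per kilobase of transcript the mean level of Saa1 was 812 CPM per kb in antibiotics livers and 969 CPM per kb in control livers, against 138 and 108 CPM per kb for Saa4. In single libraries the order of these genes turned over, since Saa1 ranged from 41.3 to 2509.5 CPM per kb and Saa4 from 87.8 to 169 CPM per kb.

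**Figure D2:**
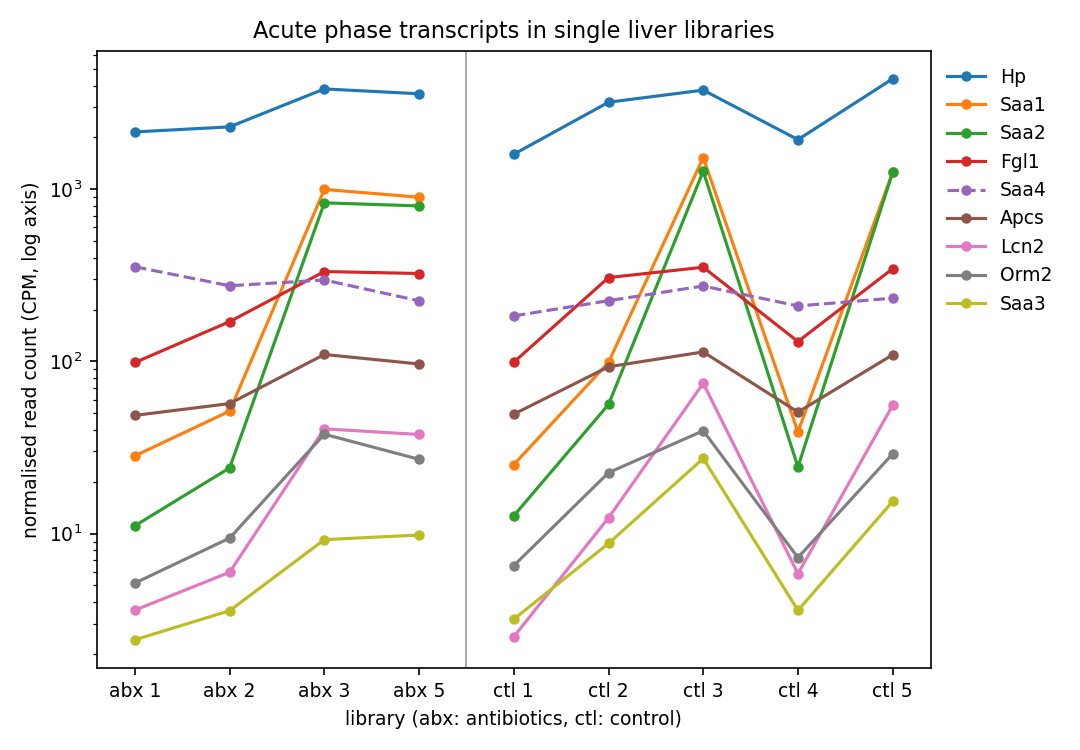
Normalised read count (CPM, log axis) of 9 genes in each library, antibiotics (abx) left of control (ctl); lines join the values of a gene within a group and imply no order. Saa1, Saa2, Lcn2, Orm2, Saa3, Fgl1, Apcs and Hp are high in libraries 3 and 5 of each group. For Saa4 (dashed) libraries 3 and 5 are above the others in the control group but not in the antibiotics group.

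Lcn2, on chromosome 2 at 32384633 to 32388252, encodes lipocalin 2, which binds the iron carriers that bacteria secrete. Its levels were 3.59, 5.97, 40.6 and 37.7 CPM in antibiotics livers, against 2.52, 12.3, 74.7, 5.85 and 55.7 CPM in control livers. The same 4 libraries as for Saa1 were the highest, and the log2 fold change of -0.42 ± 0.92 (SE) was not called (adjusted p = 0.853). The orosomucoids are alpha-1-acid glycoproteins that carry small lipophilic molecules in plasma. Orm2, on chromosome 4, had 5.16, 9.42, 37.8 and 27.02 CPM in antibiotics livers, against 6.52, 22.6, 39.6, 7.26 and 29.1 CPM in control livers. Orm1 was more abundant and less variable, with 455, 613, 907 and 824 CPM in antibiotics livers, against 602, 936, 1033, 573 and 1129.7 CPM in control livers. Both were higher in libraries 3 and 5 than in the other libraries of their group. Neither was called, with log2 fold changes of -0.05 ± 0.61 (adjusted p = 0.975) for Orm2 and -0.29 ± 0.24 (adjusted p = 0.569) for Orm1 (SE). The principal coding transcripts of these genes are 91.0% identical over 775 nt, so Orm2, the less abundant, is uncertain. Orm3 had 1.57, 1.39, 0.995 and 1.01 CPM in antibiotics livers, against 0.568, 1.68, 0.583, 0.408 and 0.404 CPM in control livers, from 11 to 81 counts per library. Control library 2 was the highest of all for Orm3 and the other 4 control libraries were below all antibiotics libraries. The log2 fold change was 0.71 ± 0.42 (SE) and was not called (adjusted p = 0.409). Without control library 2 it was 1.31 and was called, with an adjusted p of 0.0450.

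Haptoglobin (Hp) binds free haemoglobin and hemopexin (Hpx) binds free haem. Hp had 2153, 2305, 3827 and 3588 CPM in antibiotics livers, against 1598, 3204, 3767, 1942 and 4382 CPM in control livers. Hpx had 2741, 2777, 4503 and 4551 CPM in antibiotics livers, against 2485, 4839, 5049.7, 2993 and 5548 CPM in control livers. In each gene libraries 3 and 5 were above the others of their group and control library 2 came close to them. The log2 fold changes were -0.01 ± 0.29 (SE, adjusted p = 0.995) for Hp and -0.20 ± 0.26 (SE, adjusted p = 0.731) for Hpx. Of the pentraxins, Apcs encodes serum amyloid P, the main acute phase pentraxin of the mouse, and Crp encodes C-reactive protein, which is the major one in humans and changes little in the mouse. Apcs had 48.6, 56.9, 109.8 and 96.7 CPM in antibiotics livers, against 49.4, 93.1, 114, 50.8 and 109 CPM in control livers. Crp had 401, 357, 438 and 355 CPM in antibiotics livers, against 426, 447, 345, 378 and 350.2 CPM in control livers. Apcs thus had the same 4 highest libraries as Saa1, over a 2.34-fold range, whereas Crp spanned 1.30-fold and had its highest level in control library 2. Neither was called (adjusted p = 0.911 for Apcs and 0.986 for Crp).

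Fibrinogen, the precursor of the clot, is built from the chains encoded by Fga, Fgb and Fgg, and Fgl1 encodes a fibrinogen-like protein that hepatocytes secrete. Fgl1 had 98.6, 170.3, 333 and 324 CPM in antibiotics livers, against 98.98, 307, 353, 130.5 and 346 CPM in control livers. Its 4 highest libraries were those of Saa1, and its log2 fold change was -0.09 ± 0.43 (SE, adjusted p = 0.938). The chains varied much less. Fga had 4265, 4594, 4604 and 4854 CPM in antibiotics livers, against 5435, 6429, 4406, 4845 and 7908 CPM in control livers. Fgb ranged from 3703 to 4984 CPM in antibiotics livers, against 3715 to 6129 CPM in control livers. Fgg ranged from 3129 to 3979 CPM in antibiotics livers, against 3311 to 5352 CPM in control livers. Control library 5 was the highest of all 9 for each of the 3 chains. Their log2 fold changes were -0.34 ± 0.16 for Fga, -0.16 ± 0.16 for Fgb and -0.22 ± 0.15 for Fgg (SE), with adjusted p of 0.290, 0.628 and 0.455, so none was called. Per kilobase the mean level was 1770.1 CPM per kb in antibiotics livers and 2244 in control livers for Fga. Fgg had 2114 and 2464 CPM per kb in antibiotics and control livers, and Fgb, with the longest transcript of the 3, had 1139 and 1274 CPM per kb.

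The inter-alpha-trypsin inhibitor heavy chains, Itih1 to Itih4, are plasma proteins, of which the first 3 are transferred to hyaluronan in the extracellular matrix. Itih3 had 669, 632, 883 and 898 CPM in antibiotics livers, against 639, 722, 860.1, 692 and 883 CPM in control livers. Itih4 had 1376, 1558, 2166 and 2163 CPM in antibiotics livers, against 1567, 1935, 2117, 1439.8 and 2253 CPM in control livers. Both had the same 4 highest libraries as Saa1, over ranges of 1.42-fold and 1.64-fold. Itih1 and Itih2 spanned 1.34-fold and 1.23-fold over the 9 libraries and did not have these 4 highest. None of the 4 was called, with log2 fold changes between -0.08 and 0.02 and adjusted p of at least 0.669.

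Serpina3m, on the plus strand of chromosome 12 at 104338486 to 104394257, was the called gene. Serpina3m had 398, 371, 383 and 356 CPM in antibiotics livers, against 307, 302, 274, 285 and 268 CPM in control livers. All 4 antibiotics libraries were above all 5 control libraries, which was so for 1 of the 33 genes and, in either direction, for 8.88% of all tested genes. The means were 377 ± 17.9 CPM in antibiotics livers (SD, n = 4) and 287 ± 16.8 CPM in control livers (SD, n = 5), a 1.31-fold difference. The log2 fold change was 0.39 ± 0.07 (SE), with an adjusted p of 0.0239. Serpina3m did not have the highest libraries of Saa1, and its SD of log2 CPM was 0.07 over antibiotics libraries and 0.08 over control libraries. The call was lost when single libraries were left out, with adjusted p of 0.0812 without antibiotics library 1, 0.0780 without 3, 0.0564 without 5 and 0.0547 without control library 4, while the log2 fold change stayed between 0.36 and 0.42. Its principal coding transcript is 90.2% identical over 1659 nt to that of Serpina3k, whose exons also overlap it on the same strand. Reads may be split between them, so the level and the call of Serpina3m, by far the less abundant, are uncertain. Serpina3k had 11469.5 ± 1157 CPM in antibiotics livers (SD, n = 4) and 11233 ± 2245 CPM in control livers (SD, n = 5), and was not called (log2 fold change 0.03 ± 0.16, SE, adjusted p = 0.945).

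Serpina3n encodes another inhibitor of that family, induced in liver and brain during inflammation. Its levels were 380.0, 403, 566 and 541 CPM in antibiotics livers, against 339.5, 478, 473, 317 and 631 CPM in control livers. Antibiotics libraries 3 and 5 and control library 5 were high, and the log2 fold change of 0.08 ± 0.20 (SE) was not called (adjusted p = 0.875). Of the genes of metal handling, Cp encodes ceruloplasmin, the copper-carrying ferroxidase of plasma, and Steap4 a membrane reductase of iron and copper. Steap4 had 141, 133, 148 and 141 CPM in antibiotics livers, against 88.1, 116, 122, 99.2 and 137 CPM in control livers. Only control library 5 reached the level of the antibiotics libraries, and the log2 fold change of 0.32 ± 0.11 (SE) had an unadjusted p of 0.0158 but an adjusted p of 0.159. Cp had 1075, 1125, 1468 and 1267 CPM in antibiotics livers, against 1180.0, 1468, 1678, 1274 and 1493 CPM in control livers. Libraries 3 and 5 were the highest of each group, and Cp was not called (log2 fold change -0.20 ± 0.13, SE, adjusted p = 0.441).

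The IL6 receptor and the proteins behind it varied far less between libraries than Saa1, Saa2 or Lcn2. Il6ra, the binding subunit, had 75.2, 90.8, 57.2 and 60.8 CPM in antibiotics livers, against 61.99, 58.1, 87.4, 92.6 and 42.2 CPM in control livers. Its lowest library was control 5, one of the highest for Saa1. Il6st, the signalling subunit, had 155, 146, 174 and 172 CPM in antibiotics livers, against 161, 163, 161, 152 and 162 CPM in control livers. Stat3 had 83.00, 87.4, 82.3 and 82.00 CPM in antibiotics livers, against 80.6, 95.8, 90.03, 87.1 and 91.6 CPM in control livers. Il6st and Stat3 each spanned 1.19-fold from the lowest to the highest library, Il6ra 2.19-fold and Socs3 2.79-fold, against 60.7-fold for Saa1. Socs3, the feedback inhibitor, had 7.84, 10.5, 4.75 and 6.18 CPM in antibiotics livers, against 9.60, 11.2, 6.19, 5.24 and 13.3 CPM in control livers. Libraries 3 of both groups and antibiotics library 5, which were high for Saa1, were among the lower ones for Socs3, and control library 5 was the highest. None of the 4 was called, with log2 fold changes of 0.05 ± 0.22 for Il6ra, 0.02 ± 0.07 for Il6st, -0.09 ± 0.07 for Stat3 and -0.32 ± 0.29 for Socs3 (SE) and adjusted p of at least 0.502. Il1r1, the signalling receptor of IL1, had 80.6, 57.6, 57.1 and 46.5 CPM in antibiotics livers, against 54.4, 64.3, 82.4, 87.5 and 78.6 CPM in control livers. Il1rn, the secreted antagonist of that receptor, had 2.81, 3.85, 3.26 and 4.11 CPM in antibiotics livers, against 1.80, 3.08, 2.85, 2.77 and 2.46 CPM in control livers. The groups overlapped in both, and the log2 fold changes were -0.28 ± 0.17 (SE, adjusted p = 0.403) for Il1r1 and 0.45 ± 0.18 (SE, unadjusted p = 0.0297, adjusted p = 0.213) for Il1rn.

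Of the negative acute phase genes, Alb encodes albumin, Ttr transthyretin, a carrier of thyroid hormone and of retinol-binding protein, and Ahsg fetuin-A, which keeps calcium phosphate in solution. Alb had 57091, 65617, 61618 and 55643 CPM in antibiotics livers, against 71590.1, 68656, 57159.9, 63372 and 66109.9 CPM in control livers. Ttr had 4698, 5084, 4453 and 3955 CPM in antibiotics livers, against 5539, 5586, 4387, 4530.1 and 5192 CPM in control livers. Ahsg had 7302, 6108, 6919 and 6756 CPM in antibiotics livers, against 6606, 6925, 6490.1, 6109 and 8125 CPM in control livers. These levels spanned 1.29-fold for Alb, 1.41-fold for Ttr and 1.33-fold for Ahsg, and antibiotics library 5 was the lowest for Alb and Ttr but not for Ahsg. None was called, with log2 fold changes of -0.12 ± 0.13 for Alb, -0.15 ± 0.12 for Ttr and -0.02 ± 0.11 for Ahsg (SE) and adjusted p of at least 0.542. Alb had the highest level per kilobase of the 33 genes, 29495 CPM per kb in antibiotics livers and 32142 in control livers, and Orm3 and Il1rn the lowest, at 1.61 and 0.943 CPM per kb for Orm3 and 1.42 and 1.05 for Il1rn.

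**Figure D3:**
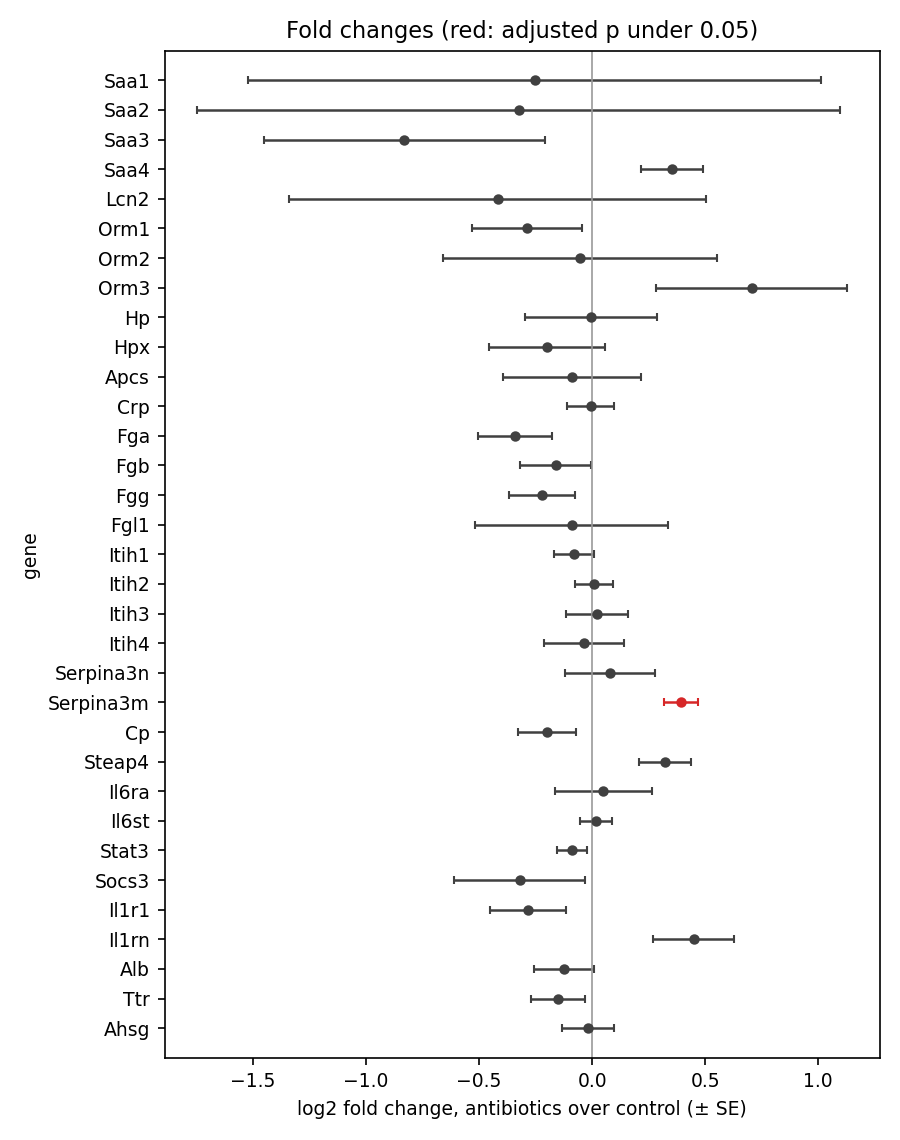
Log2 fold change, antibiotics over control, of each of the 33 genes, with bars of 1 SE and red for an adjusted p under 0.05. Serpina3m is the red point, and the bars are widest for Saa2, Saa1 and Lcn2, the genes that varied most between libraries.

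The libraries that were highest for Saa1 were also highest for some of the other acute phase genes. The same 4 libraries as in Saa1 (antibiotics 3 and 5, control 3 and 5) were the 4 highest in 10 of the 33 genes, Saa1 included. They were the 4 highest in 2 of the 63 tested genes of the pathway lists described below and in 1.04% of all tested genes. The other 9 were Saa2, Saa3, Lcn2, Orm2, Hp, Apcs, Fgl1, Itih3 and Itih4. Within the antibiotics group alone, libraries 3 and 5 were above libraries 1 and 2 in 18 of the 33 genes (54.5%), against 18.6% of all tested genes. Within the control group alone, libraries 3 and 5 were above the other 3 libraries in 16 of the 33 (48.5%), against 9.06% of all tested genes. Both held in 13 genes (39.4%), against 2.68% of all tested genes, and Orm1, Hpx and Cp joined the previous 10 there. The 4 libraries were picked as the highest of Saa1, and Saa1 and its close copy Saa2 are counted among the 33 genes. The excess over all tested genes is thus partly set by that choice. These shares describe 9 libraries and have no test, and genes that share libraries are not independent of each other.

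The spread within a group was measured as the SD of log2 CPM (prior count 2). For Saa1 it was 2.70 over antibiotics libraries and 2.79 over control libraries, at the 99.8 and 99.9 percentiles of all tested genes. Lcn2 had 1.79 and 2.08, Saa3 0.99 and 1.32, Orm2 1.32 and 1.19, and Fgl1 0.84 and 0.87 over antibiotics and control libraries. For Stat3 it was 0.04 and 0.09, and for Socs3 0.49 and 0.57, the latter pair at the 89.3 and 90.7 percentiles. Among the 33 genes 7 were above the 90th percentile over antibiotics libraries and 10 over control libraries, 7 of them in both, whereas 9 genes were below the 50th percentile in both. The median SD was 0.27 over antibiotics libraries and 0.28 over control libraries for the 33 genes, against 0.16 and 0.20 for all tested genes. Over the 9 libraries the highest level was more than 10 times the lowest in 4 of the 33 genes (Saa1, Saa2, Saa3 and Lcn2) and less than 1.5 times the lowest in 10.

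**Figure D4:**
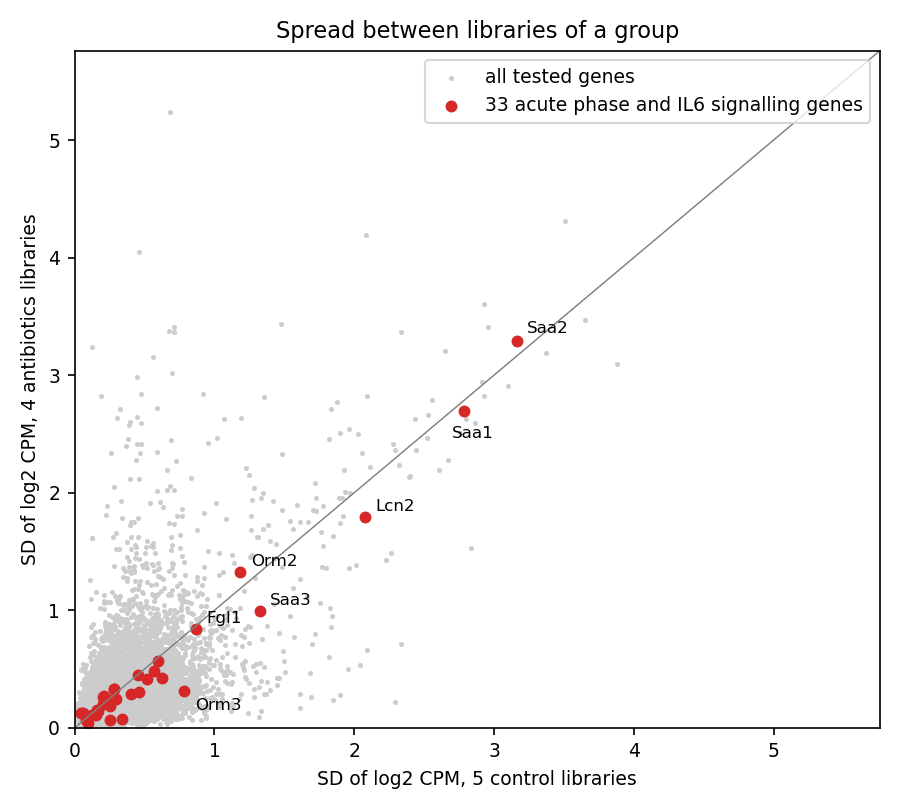
Spread between libraries of a group, as the SD of log2 CPM over the 4 antibiotics libraries (vertical axis) and the 5 control libraries (horizontal axis); grey points are all tested genes, red points the 33 genes, and the line marks equal spread. Saa1, Saa2, Lcn2, Orm2, Saa3 and Fgl1 lie far out along the line in both groups, and most of the 33 genes lie near the origin.

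Of 71 further genes of the same pathways in 4 lists, 63 were tested, 2 were called higher and 1 lower, against 2.68% of all tested genes called in either direction. An unadjusted p under 0.05 was found for 9 of the 63, against 18.5% of all tested genes. In the list of the IL6 family and STAT3 signalling 18 of 24 genes were tested, 0 were called higher and 1 lower, with a median log2 fold change of -0.03. The called gene was Il22ra1, the subunit of the IL22 receptor through which that cytokine activates Stat3 in epithelial cells and hepatocytes. Il22ra1 had 1.70, 3.46, 1.71 and 3.32 CPM in antibiotics livers, against 4.84, 5.43, 5.55, 6.53 and 5.29 CPM in control livers. All antibiotics libraries were below all control libraries, and the log2 fold change was -1.08 ± 0.22 (SE) with an adjusted p of 0.0324. That call was lost without antibiotics library 1, 3 or 5 or control library 1, 2 or 4, with adjusted p between 0.0506 and 0.0809. The gene with the next smallest p in the list was Ptpn11, a phosphatase that binds Il6st, with 64.7 ± 2.47 CPM in antibiotics livers (SD, n = 4) and 73.3 ± 5.37 CPM in control livers (SD, n = 5; adjusted p = 0.197). The cytokines IL6 and IL22 had almost no transcript in these livers. Il6 had at most 1 count in any library, 3 in all, and Il22 had 0 counts in every library, which allows up to 3 counts or 0.0483 to 0.196 CPM per antibiotics library and 0.0624 to 0.110 CPM per control library, for counting error only. Jak1, the kinase bound to Il6st, had 103 ± 5.52 CPM in antibiotics livers (SD, n = 4) and 104 ± 4.50 CPM in control livers (SD, n = 5).

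In the list of IL1 and TNF signalling 10 of 12 genes were tested and 0 were called in either direction (edgeR), 1 had an unadjusted p under 0.05, and the median log2 fold change was -0.11. No gene of this list was called by DESeq2 or limma-voom either. That 1 gene was Nfkbia, the inhibitor that holds NF-kB in the cytoplasm, with 22.6, 20.9, 17.96 and 20.9 CPM in antibiotics livers, against 26.9, 25.8, 24.6, 29.1 and 21.03 CPM in control livers. Its log2 fold change was -0.31 ± 0.10 (SE, unadjusted p = 0.0104, adjusted p = 0.131). Tnfrsf1b, a TNF receptor, came next with 31.8 ± 2.26 CPM in antibiotics livers (SD, n = 4) and 36.8 ± 7.02 CPM in control livers (SD, n = 5; adjusted p = 0.421).

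All 23 genes in the list of other positive acute phase genes were tested, 2 were called higher and 0 lower, and the median log2 fold change was -0.02. Both were metallothioneins, small zinc-binding proteins. Mt1 had 73.1, 81.5, 56.97 and 89.4 CPM in antibiotics livers, against 9.60, 14.1, 28.2, 23.4 and 29.4 CPM in control livers. Mt2 had 47.7, 66.4, 42.1 and 58.5 CPM in antibiotics livers, against 4.52, 8.004, 19.99, 17.6 and 16.9 CPM in control livers. In both genes all antibiotics libraries were above all control libraries, and neither had the 4 highest libraries of Saa1. The log2 fold changes were 1.85 ± 0.28 (SE, adjusted p = 0.0140) for Mt1 and 2.01 ± 0.35 (SE, adjusted p = 0.0192) for Mt2. Without antibiotics library 5 neither was called (adjusted p = 0.0533 for Mt1 and 0.0623 for Mt2), and Mt2 was also lost without antibiotics library 1 (0.0574) or 3 (0.0509). Exons of Mt2 overlap those of Gm45774 on the opposite strand. Of the 23 genes 2, Lrg1 and C3, shared the 4 highest libraries of Saa1. They were chosen for that after their values were seen. Lrg1, a secreted leucine-rich glycoprotein, had 154, 131, 229.5 and 297 CPM in antibiotics livers, against 84.98, 174, 189, 92.6 and 387 CPM in control livers. C3, the central complement component, had 5175, 4653, 6348 and 6760.2 CPM in antibiotics livers, against 5112, 6110.1, 6739, 5188 and 6204 CPM in control livers.

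All 12 genes in the list of other negative acute phase genes were tested and 0 were called in either direction (edgeR, and likewise DESeq2 and limma-voom), while 2 had an unadjusted p under 0.05. These were Igf1, the liver-derived growth factor, and Rbp4, the retinol carrier. Igf1 had 463, 273, 449.9 and 405 CPM in antibiotics livers, against 267, 307, 309.7, 250.4 and 338 CPM in control livers. Rbp4 had 2716, 2319, 2362 and 2224 CPM in antibiotics livers, against 2226, 2125, 1947, 1951 and 2106 CPM in control livers. Their log2 fold changes were 0.43 ± 0.15 (SE, adjusted p = 0.149) and 0.22 ± 0.10 (SE, adjusted p = 0.255).

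**Figure D5:**
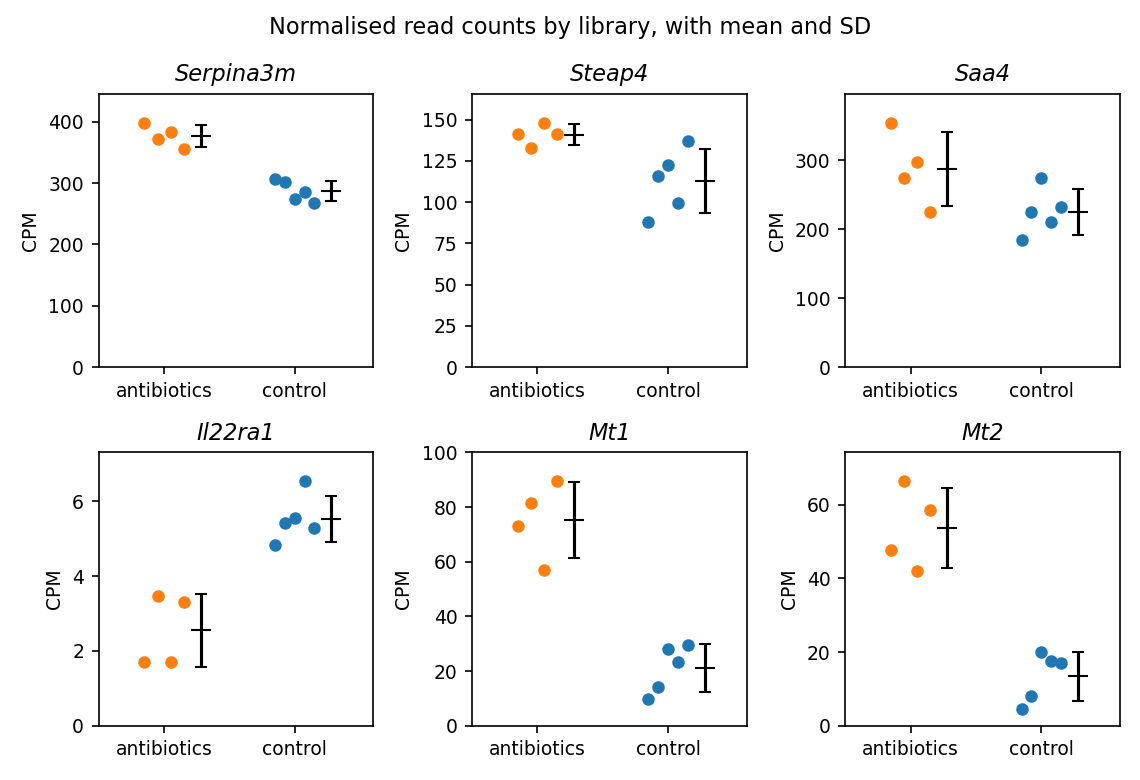
Normalised read count (CPM) in each library, antibiotics left of control, with the mean and SD of each group beside the points, for 6 genes named in the text. The groups do not overlap for Serpina3m, Mt1, Mt2 (higher in antibiotics livers) and Il22ra1 (lower), and they overlap for Steap4 and Saa4.

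Library totals were 15422891, 18001886, 18504624 and 59179622 counts in antibiotics livers, against 28156248 to 49628737 in control livers. Antibiotics libraries 1, 2 and 3 were thus below every control library, and antibiotics library 5 was the deepest of all. The 33 genes took 9.18% to 10.4% of the counts in antibiotics livers and 10.3% to 11.7% in control livers, most of it Alb. The hepatocyte markers were abundant in all libraries, with a summed level of 17208 to 20629 CPM in antibiotics livers, against 13558 to 19463 CPM in control livers. Neutrophil markers summed to 2.29 to 3.69 CPM in antibiotics livers, against 2.83 to 5.06 CPM in control livers, and 8 of the 10, Ly6g, Mpo and Elane among them, stayed under 1 CPM in every library. Markers of Kupffer cells and macrophages summed to 164 to 211 CPM in antibiotics livers, against 161 to 486 CPM in control livers. The highest of those sums was control library 2, where Clec4f reached 130.1 CPM. The summed bile duct markers had the same 4 highest libraries as Saa1, at 33.7, 43.3, 64.5 and 66.8 CPM in antibiotics livers, against 42.7, 33.9, 93.6, 60.1 and 72.7 CPM in control livers. That sum was mostly Spp1, which made up 85.3% to 93.8% of it and was the 1 gene of the 6 with these 4 highest libraries. Without Spp1 the sum was 4.38 to 6.85 CPM in antibiotics livers, against 3.47 to 7.39 CPM in control livers, and its 4 highest libraries were not those of Saa1. The part of Spp1 in the spread of the acute phase genes was not tested. Among the 6 stellate cell and fibroblast markers Col1a2 had these 4 highest libraries, and the sum of that list, 144 to 165 CPM in antibiotics livers, against 138 to 178 CPM in control livers, did not. Sums of the endothelial list (168 to 179 CPM in antibiotics livers, against 163 to 208 CPM in control livers), of the lymphocyte list (1.34 to 2.03 CPM in antibiotics livers, against 1.51 to 2.62 CPM in control livers) and of the adipose list (3.51 to 5.31 CPM in antibiotics livers, against 0.913 to 5.14 CPM in control livers) did not have them either. Within the antibiotics group alone, libraries 3 and 5 were above libraries 1 and 2 in several of these sums. These were the neutrophil, Kupffer cell and macrophage, lymphocyte, endothelial, bile duct and adipose sums. Within the control group alone, only the bile duct sum had libraries 3 and 5 above the other libraries. Mitochondrially encoded mRNA made up 6.37, 7.35, 7.08 and 5.19% of the counts in antibiotics livers, against 5.18, 4.76, 6.55, 5.72 and 4.34% in control livers, and its 4 highest libraries were not those of Saa1.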

How the data were processed

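RNA was measured in 9 mouse liver libraries, 4 antibiotics and 5 control, made with a stranded poly(A) kit, per the labels' protocols. The authors deposited estimated counts for each gene, made with Salmon and GRCm38 according to the submitters' processing notes. Salmon's version and settings, the annotation release and whether strand was used are not stated there. All values were whole numbers and were used as they stood, and all 54393 gene IDs occur in GENCODE M21, which supplied symbols, positions and transcript lengths. Groups and numbers came from the sample titles.

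Genes were filtered with filterByExpr (minimum count 10, minimum total 15), scaled by TMM factors and tested by quasi-likelihood in edgeR 4.0.16 (R 4.3.3), in a model of group alone, with p-values adjusted by Benjamini-Hochberg. The SE is the log2 fold change divided by the square root of F, and the biological coefficient of variation was 16.7%. CPM values use TMM-scaled library sizes, with SDs taken over the libraries of a group. Close copies (at least 90% identity over 200 nt) were found with BLAST 2.17.0, and promoter motifs were searched in 250 bases on both strands. No pair of libraries of a group agreed within sampling noise (lowest chi-square per degree of freedom 18.8). Exons of Fgg, Cp, Il6ra, Stat3 and Ahsg overlap another gene's on the other strand, which matters if strand was not used. Alternatives tried were RLE or upper-quartile factors, library sizes without the 10 most abundant genes, no filter, a filter at a mean of 1 CPM, DESeq2 1.42.0, limma-voom (limma 3.58.1), thresholds of 0.10 and 0.01, a block for the replicate number, and leaving out each library in turn.

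The 33 genes and all lists were chosen with earlier results of these data known. The text names all 33 genes, and of the 4 pathway lists the called genes and the 2 with the smallest p in each; other genes, such as Jak1, Serpina3k, Lrg1, C3 and the cytokines, were added after their values were seen. Some listed genes are not reported here.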

Additional observations from a re-analysis of the deposited data

Results flagged for a closer look

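In each group of libraries the most extreme level of each of the 33 genes was compared with the others by Dixon's ratio, 66 groups in all, and 3 exceeded the 95% critical value of 0.71 for 5 libraries, where chance gives about 1 in 20. Orm3 had 1.68 CPM in control library 2, against 0.404 to 0.583 CPM in the other control libraries (gap over range 0.860). Itih1 had 658 CPM in control library 5, against 544 to 557 CPM in the others (0.884). Il6st had 152 CPM in control library 4, against 161 to 163 CPM in the others (0.860). Saa1, Saa2 and Lcn2 were not among them, because more than 1 library of each group was high.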

How the results depend on the processing

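RLE and upper-quartile factors, library sizes without the 10 most abundant genes, no filter, a filter at 1 CPM, DESeq2, limma-voom and a threshold of 0.10 left the count of called genes at 1 of the 33 (Serpina3m in each) and at 3 in the pathway lists (Il22ra1, Mt1 and Mt2). The filter at 1 CPM left no value for Orm3 or for pathway genes under it. At a threshold of 0.01 both counts were 0. Leaving out each library in turn gave 0 to 2 called genes of the 33, with 0 without antibiotics library 1, 3 or 5 or control library 4 and 2 (Orm3 and Serpina3m) without control library 2. In the pathway lists it gave 0 to 4, with Igf1 added without antibiotics library 2 and Nfkbia without control library 5. Over all tested genes 398 were called, against 36 to 455 with 1 library left out, 976 with DESeq2 and 179 with the block. The log2 fold change changed sign in 15 of the 33 genes in at least 1 omission of a library, Saa1 and Saa2 included, in 8 under another alternative, and in 18 under none. Fold changes of 62 pathway genes under the alternatives were added after seeing the data. The sign turned in 22 of them in at least 1 omission of a library, in 2 by more than 1 SE: Serpina3g (range -0.875 to 0.0111 with 1 library left out) turned positive without control library 2, and Cebpb (-0.117 to 0.28) turned negative without antibiotics library 1. The cause of these changes was not tested. Same-numbered libraries did not deviate together over the 14873 genes (r of -0.00, -0.06, 0.03 and 0.10 for numbers 1, 2, 3 and 5). Between different numbers of the groups r was -0.11 to 0.12, so the numbers were not taken to pair libraries. A correlation over all genes cannot show whether a number stands for something shared that moved only some genes. A fit with the replicate number as a block, over 8 libraries since control 4 has no partner, called 0 of the 33 genes (Serpina3m adjusted p = 0.0528) and 2 pathway genes (Mt1 and Mt2, with Il22ra1 at an adjusted p of 0.0659). In that block fit Saa1 had a log2 fold change of -0.48 (adjusted p = 0.175), Saa2 -0.68 (0.0740) and Saa3 -1.02 (0.0559). Depth limits Orm3, Il1rn and Saa3 most, at 11, 43 and 37 counts in their lowest library.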
